A study of Homo sapiens with 2 samples.

Results

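The 638 regions described here are the peaks of Flag-tagged YAP-5SA on human chromosomes 17, 19 and 22, chosen by chromosome alone from a list of 9393 peaks. Chromosome 17 held 293 of them, chromosome 19 held 224 and chromosome 22 held 121. They were set beside the 8590 peaks of the other 19 autosomes, and the 165 peaks of chromosome X were left aside. Positions are in hg19 and count from 1.

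The peaks were mapped by ChIP-seq, in which DNA crosslinked to a protein is precipitated with it and sequenced. The cells were MCF10A, a mammary epithelial line that the labels call non-transformed in one field and a breast cancer line in another. The cells expressed Flag-YAP-5SA and were grown in DMEM/F12 with horse serum, EGF, insulin, hydrocortisone and cholera toxin. DNA bound to Flag-M2 beads gave 1 ChIP library, and sheared chromatin of the same line gave 1 input DNA library, whose reads or coverage were not analysed here. The labels do not say how the transgene was driven or whether the cells were a clone or a pool. With 1 ChIP library there was no replicate and no test between groups, and the number of reads behind a peak is unknown. Intervals below are at the 95% level and cover the counting of peaks in this list only. For the main values the range over the other 19 autosomes, or their pooled value, is given as the yardstick.

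YAP is a transcriptional co-activator that the Hippo pathway restrains: the LATS kinases phosphorylate it on serines, which keeps it out of the nucleus. In the 5SA mutant these serines are replaced by alanine. YAP does not bind DNA itself but is carried by TEAD factors, largely to enhancers at a distance from start sites and often together with AP-1. Chromosomes 17, 19 and 22 are known for their crowding of genes, high GC content and early replication.

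By gene name, RefSeq places several parts of this pathway on the 3 chromosomes. Chromosome 22 carries NF2, which encodes the Hippo activator merlin, and MYH9, a non-muscle myosin heavy chain. Chromosome 19 carries TEAD2, a DNA-binding partner of YAP, AXL, a receptor tyrosine kinase counted among YAP targets, and JUNB, JUND and FOSB, subunits of AP-1. On chromosome 17 lie KRT14, a basal keratin, and ITGB4, an integrin of hemidesmosomes. All 195 genes of 9 lists drawn up for these chromosomes were found there by symbol or older symbol. No peak was assigned to any of them, because an hg19 annotation was not used here, and no sequence under a peak was read.

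The gene-dense label held for all 3 chromosomes. They had 15.4, 27.7 and 15.0 protein-coding genes per Mb on chromosomes 17, 19 and 22, each above all 19 other autosomes, where chromosome 16 was highest with 11.8 and chromosome 18 lowest with 3.72. Genes were counted by chromosome in RefSeq's GRCh38.p14 table without its coordinates. The length of a chromosome was the span of its summits with the longest stretch free of peaks taken out.

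Against length, the peaks were somewhat denser than on most autosomes. Chromosome 17 had 3.85 peaks per Mb (3.42 to 4.32), chromosome 19 had 4.28 (3.74 to 4.88) and chromosome 22 had 4.03 (3.34 to 4.81). Each lay above 15 of the 19 other autosomes and below 4, whose values ran from 2.45 on chromosome 16 to 6.07 on chromosome 20. Together the 3 had 4.03 peaks per Mb (3.72 to 4.35) against 3.55 (3.47 to 3.62), a ratio of 1.14 (1.05 to 1.23). Without chromosome 19 the ratio was 1.10, and its interval, 0.996 to 1.21, included 1. The excess was smaller than the distance between many single autosomes.

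Against genes, the same peaks were sparse. Chromosome 19 had 15.4 peaks per 100 protein-coding genes (13.5 to 17.6), below all 19 other autosomes. Chromosome 17 had 25.1 (22.3 to 28.1) and chromosome 22 had 26.8 (22.3 to 32.1), each below 18 of the 19. The exception was chromosome 16, which is also gene-rich, with 20.7. The other autosomes had a median of 51.6, and the highest value was 84.6 on chromosome 13. Together the 3 chromosomes held 16.1% of autosomal protein-coding genes, 6.14% of the length and 6.91% (6.41 to 7.45) of autosomal peaks. The share of peaks was thus close to the share of length and well under that of genes.

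**Figure D1:**
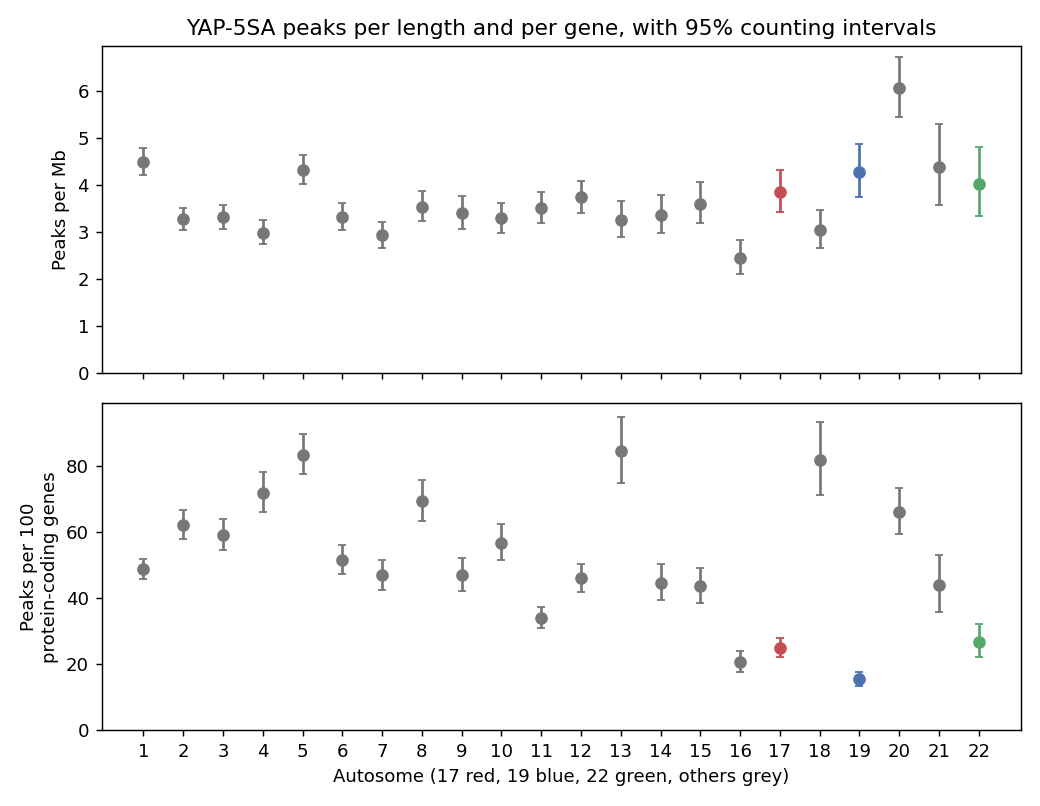
Peaks per Mb (upper panel) and peaks per 100 protein-coding genes (lower panel) on each autosome, with 95% counting intervals. Chromosomes 17, 19 and 22 lie within the range of the others per Mb, between 3.85 and 4.28, and near the bottom per gene, between 15.4 and 26.8.

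Chromosome 19 is known for clusters of zinc finger genes, transcriptional repressors that arose by local duplication. There, 250 of 1451 protein-coding genes, or 17.2%, had a symbol of ZNF followed by digits, against 0.941% on chromosome 17 and 0.887% on chromosome 22. Leaving these genes out everywhere gave 18.7 peaks per 100 genes on chromosome 19, 25.3 on chromosome 17, 27.1 on chromosome 22 and 21.5 on chromosome 16. Chromosome 19 still had the lowest value of the 22 autosomes. Counting genes of every kind, chromosome 19 had 8.30 peaks per 100 genes, chromosome 22 had 9.08 and chromosome 17 had 10.8. On that count chromosome 16 had the lowest value, 8.14.

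Over the 22 autosomes, peaks per Mb were higher where protein-coding genes per Mb were higher (Spearman's rho = 0.52, and 0.42 over the 19 without chromosomes 17, 19 and 22). Both measures share the length in their denominator. This is a description of 22 chromosomes from 1 library.

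At the centre of their distribution, heights on the 3 chromosomes were close to those elsewhere. Height is the authors' score at the summit, a whole number with no unit given, and it is used here only within this list. The median was 23 on chromosome 17, with an interquartile range of 18 to 30. It was 24 on chromosome 19 (20 to 32) and 24 on chromosome 22 (19 to 32). The other autosomes together had a median of 24 and an interquartile range of 19 to 30. The medians of the 3 chromosomes thus differed from it by at most 1 unit of height. With chromosomes 1, 5, 8, 10 and 20 left out, the other autosomes had a median of 23. The median of the 3 together was then higher by 1 unit (0 to 2). The chromosomes left out had medians of 25, 24, 23, 24 and 27 in the order named.

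The upper tails differed among the 3. Of all peaks in the list, 8.67% reached a height of 40 or more. On chromosome 22 19 of 121 peaks did, or 15.7% (10.3 to 23.2), above all 19 other autosomes, whose highest was 14.9% on chromosome 20. That rank depended on the cutoff. At 30 or more chromosome 22 had 30.6%, below chromosome 5 (31.5%) and chromosome 20 (40%). At 50 or more it had 5.79%, below chromosome 20 (5.92%). On chromosome 19 24 of 224 peaks reached 40, or 10.7% (7.31 to 15.4), and on chromosome 17 20 of 293 did, or 6.83% (4.46 to 10.3). Chromosome 17 lay below 15 of the 19 other autosomes. Its genes per Mb were close to those of chromosome 22, and a relation of the tall share to genes was not tested. Together the share was 9.87% (7.79 to 12.4) against 8.60% (8.03 to 9.21), and the intervals overlap. Without chromosome 22 the share of the remaining 2 was 8.51%, just under that of the other autosomes. With chromosomes 1, 5, 8, 10 and 20 left out, the other autosomes had 7.59%, below the interval of the 3 together. The chromosomes left out had shares of 9.91%, 10.5%, 10.3%, 8.15% and 14.9% in the order named, against a median of 8.20% over the 19. Most of them were thus rich in tall peaks, and leaving them out lowers the yardstick.

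At the low end, chromosomes 17 and 19 had the highest shares instead. A height of 15 or less was found for 31 peaks of chromosome 17, or 10.6% (7.55 to 14.6), and for 24 of chromosome 19, or 10.7% (7.31 to 15.4). Both were above all 19 other autosomes, whose range was 3.10% to 10.5%. Chromosome 22 had 8 such peaks, or 6.61% (3.39 to 12.5), below 17 of the 19. The intervals are wide, and the next autosome, chromosome 7 with 10.5%, was hardly lower. The other autosomes together had 7.87%, which lies inside the intervals of all 3 chromosomes. The SD of heights was 11.9 over the 224 peaks of chromosome 19, against 9.01 on chromosome 17 and 10.9 on chromosome 22. It was 9.55 on the other autosomes together.

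**Figure D2:**
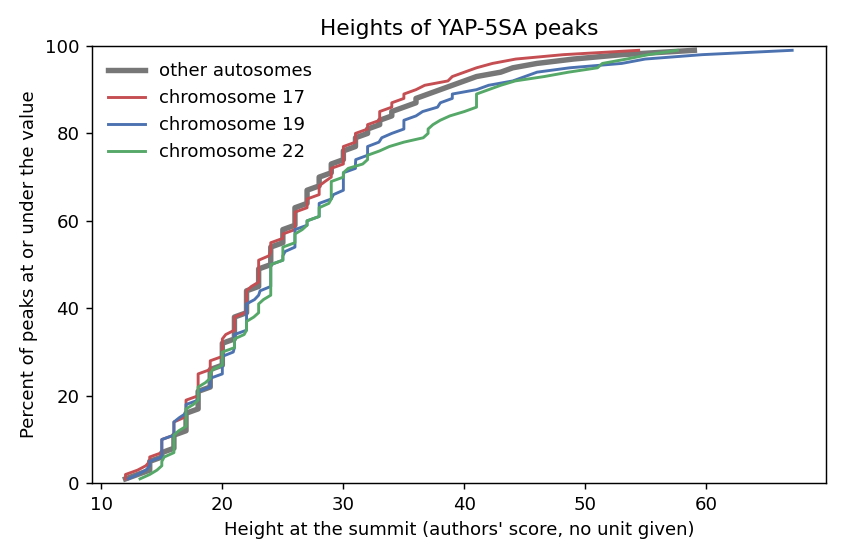
Percent of peaks (vertical axis) at or under each height (horizontal axis, the authors' score with no unit) on chromosomes 17, 19 and 22 and on the other autosomes together, from the 1st to the 99th percentile. The curves run together around the medians of 23 and 24 and part above 30, where chromosomes 19 and 22 lie to the right.

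The tallest member was also the tallest peak of the list: chromosome 19 from 3116252 to 3116834, height 100 and width 583 bp. Chromosome 19 held 5 of the 8 members of height 60 or more. These were 2.23% (0.96 to 5.12) of its peaks, against 0.92% (0.74 to 1.14) on the other autosomes together, and the intervals overlap. The second tallest of chromosome 19 was from 2540549 to 2541409, with a height of 73, and 13 peaks of the list were taller. The third was from 46714262 to 46715268, with a height of 68. Both tallest peaks lay in the first 5 Mb of the chromosome, where the other peaks were mostly low: the 24 peaks of that stretch had a median height of 22. The remaining 2 at 60 or more were from 35653713 to 35654385 (height 64) and from 45879395 to 45880075 (height 61).

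On chromosome 17 the heights fell off sooner. The tallest was from 73426363 to 73426977, with a height of 71, which 17 peaks of the list exceeded. The next was from 1617608 to 1618344 (height 62), and the third from 48105479 to 48106297 (height 59). The tenth tallest had a height of 44. A height of 50 or more was reached by 4 peaks of chromosome 17, or 1.37% (0.53 to 3.46), against 2.77% (2.44 to 3.14) on the other autosomes together. Chromosome 19 had 11 such peaks, or 4.91% (2.76 to 8.58), and chromosome 22 had 7, or 5.79% (2.83 to 11.5).

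Chromosome 22 had 1 peak of height 60 or more, or 0.83% (0.15 to 4.53). This tallest peak was from 19868462 to 19869145, with a height of 65. The second was from 39571622 to 39572686, with a height of 58 and a width of 1065 bp. Its neighbour from 39570520 to 39571320 had a height of 51, and the 2 together covered 2.17 kb. Among the groups of close peaks on the 3 chromosomes, this was the only one in which every peak reached 50. The tenth tallest peak of chromosome 22 had a height of 46, above the tenth of chromosome 17 although chromosome 22 had fewer peaks.

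The peaks of the 3 chromosomes were wider than those of the other autosomes. The median width was 655 bp (interval of the median 640 to 671) against 609 bp (605 to 613) on the other autosomes, and the interquartile ranges were 549 to 758 bp and 519 to 707 bp. Chromosome 19 had a median of 677 bp (657 to 697), chromosome 22 of 651 bp (610 to 682) and chromosome 17 of 634 bp (615 to 656). Of the 19 other autosomes, only chromosome 20, with 684 bp, was above chromosomes 19 and 22, and 4 were above chromosome 17. The lowest of the 19 was 577 bp on chromosome 18. Without chromosome 19, the median of chromosomes 17 and 22 exceeded that of the other autosomes by 31.5 bp, against 46 bp with it.

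Among the 3, very wide peaks were most common on chromosome 19. Over the whole list, 8.45% of peaks were 900 bp or wider. Chromosome 19 had 39 of 224, or 17.4% (13.0 to 22.9), above all 19 other autosomes, where chromosome 20 was highest with 16.6%. Chromosome 17 had 28, or 9.56% (6.69 to 13.5), and chromosome 22 had 10, or 8.26% (4.55 to 14.5), with intervals that include that background. Of the 52 autosomal peaks of 1500 bp or more, 9 were members, or 17.3% (9.38 to 29.7), against 6.91% of all autosomal peaks. Chromosome 19 held 6 of these 9.

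The widest members were not the tallest. The widest was on chromosome 17 from 18162923 to 18165001, at 2079 bp with a height of 30. On chromosome 19 it was from 41221220 to 41223279, at 2060 bp with a height of 44, and on chromosome 22 from 31225775 to 31227465, at 1691 bp with a height of 31. Chromosome 19 also had wide peaks of low height, such as that from 45680856 to 45682456, at 1601 bp with a height of 14. The tallest peak of the list, by contrast, was narrower than the median of its chromosome.

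Height and width were nearly unrelated on chromosomes 17 and 19. Spearman's rho across peaks was 0.03 on chromosome 17 and -0.07 on chromosome 19, both lower than on all 19 other autosomes, where it ran from 0.08 to 0.23. On chromosome 22 it was 0.30, higher than on all 19. Peaks are not independent replicates, and these values are descriptions. The 3 gene-dense chromosomes thus lay at both extremes of this measure.

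Divided by height, the extra width sat at the low and the upper-middle heights. Among peaks of height 15 or less, the median width was 735 bp (660 to 782, 63 peaks) on the 3 chromosomes and 646 bp (632 to 658) elsewhere. At heights of 16 to 18 it was 660 bp (628 to 713) against 578 bp (569 to 586). At heights of 23 to 27 the order was the other way, with 575 bp (550 to 622) against 602 bp (595 to 607), and the intervals overlap. Peaks of height 28 to 35 were again wider, at 686 bp (653 to 704) against 634 bp (624 to 640). In the 2 classes left, heights of 19 to 22 and of 36 or more, the medians were also higher on the 3 chromosomes, with overlapping intervals.

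Among the lowest peaks, those of chromosome 19 had the greatest median width of the 3. There, the median width was 811 bp (697 to 927) over 24 peaks with heights up to 15, and 749 bp (660 to 843) over 24 peaks with heights of 16 to 18. On chromosome 17 the corresponding values were 671 bp (589 to 761) and 646 bp (618 to 701). Chromosome 22 had 630 bp (496 to 855, 8 peaks) and 583 bp (540 to 706), close to the other autosomes. Of the 3, only chromosome 19 had an interval above that of the other autosomes in the lowest class, and at heights of 16 to 18 chromosomes 17 and 19 both did.

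**Figure D3:**
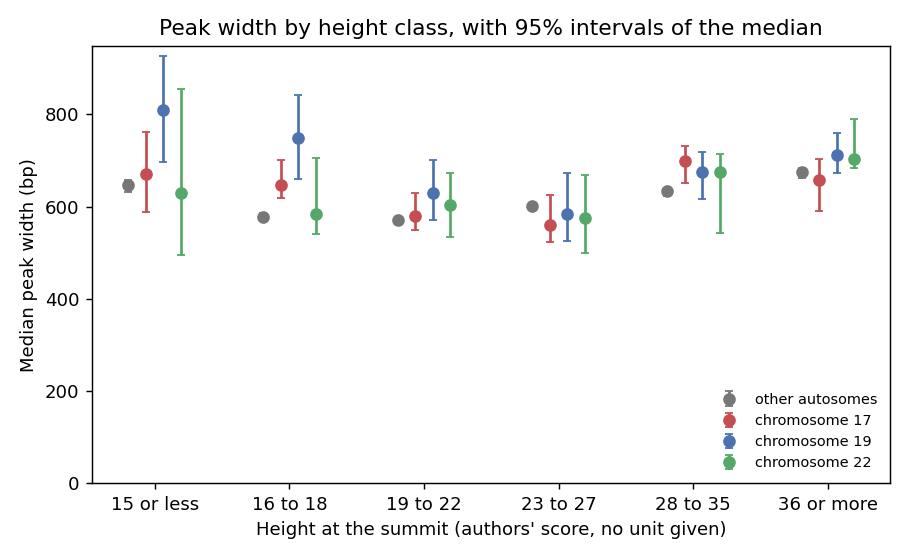
Median peak width in bp (vertical axis, from 0) in 6 classes of height (horizontal axis) for chromosomes 17, 19 and 22 and the other autosomes, with 95% intervals of the median from its order statistics. In the 2 lowest classes chromosome 19 is the widest, at 811 and 749 bp against 646 and 578 bp elsewhere.

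Across the 22 autosomes, median width was greater where protein-coding genes per Mb were more numerous (Spearman's rho = 0.67, and 0.53 over the 19 without the 3). It was also greater where mean height was greater (rho = 0.75, and 0.70 without the 3), and the part of height in the relation with genes was not tested. Single chromosomes departed from the order by genes. Chromosome 20 had a median width of 684 bp with 9.18 genes per Mb, and chromosome 11 had 594 bp with 10.3.

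**Figure D4:**
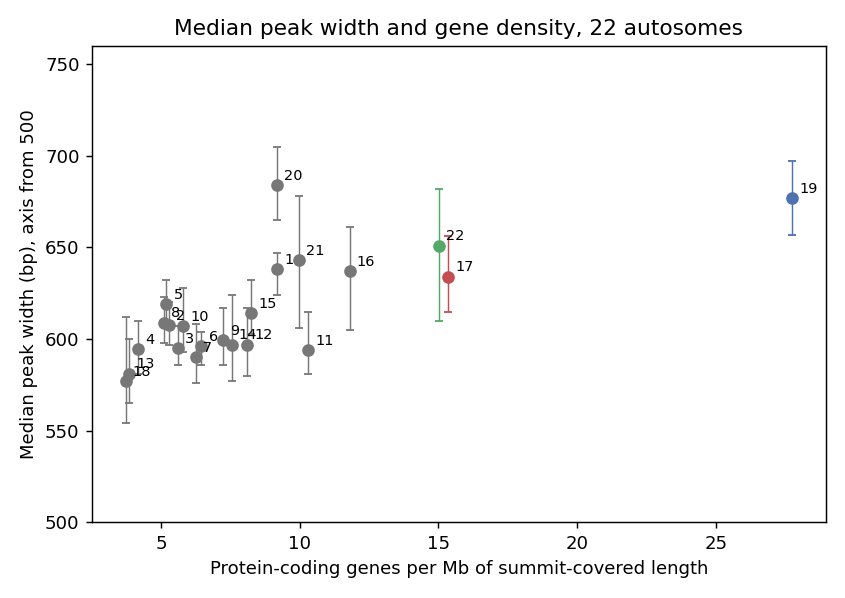
Median peak width in bp (vertical axis, starting at 500) against protein-coding genes per Mb (horizontal axis) for the 22 autosomes, with 95% intervals of the median. Chromosomes 17, 19 and 22 are the 3 points farthest to the right, at 634, 677 and 651 bp.

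Spacing also split the 3 chromosomes. Another summit lay within 50 kb for 73 peaks of chromosome 22, or 60.3% (51.4 to 68.6), and for 125 of chromosome 19, or 55.8% (49.3 to 62.2). On chromosome 17 this held for 123 peaks, or 42.0% (36.5 to 47.7). The other autosomes together had 47.9% (46.8 to 49.0), with a range of 37.9% to 62.8%. Chromosomes 22 and 19 were thus near the top of that range, and chromosome 17 was below 16 of the 19. Pooled, the 3 had 50.3% (46.4 to 54.2), an average of unlike values. Without chromosome 19 the pooled share was 47.3%, just under the other autosomes. The order depended on the distance. Within 10 kb the shares were 20.8% on chromosome 17, 25% on chromosome 19 and 18.2% on chromosome 22, against 19.6% on the other autosomes together. Within 100 kb they were 61.8%, 73.7% and 74.4%, against 64.0%.

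The typical distance followed the order seen within 50 kb. The median distance to the nearest summit was 76.9 kb on chromosome 17, 39.1 kb on chromosome 19 and 30.6 kb on chromosome 22. Of the other autosomes, only chromosome 16, at 77.3 kb, had a longer median than chromosome 17. Only chromosome 20, at 25.6 kb, had a shorter one than chromosome 19 or 22.

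**Figure D5:**
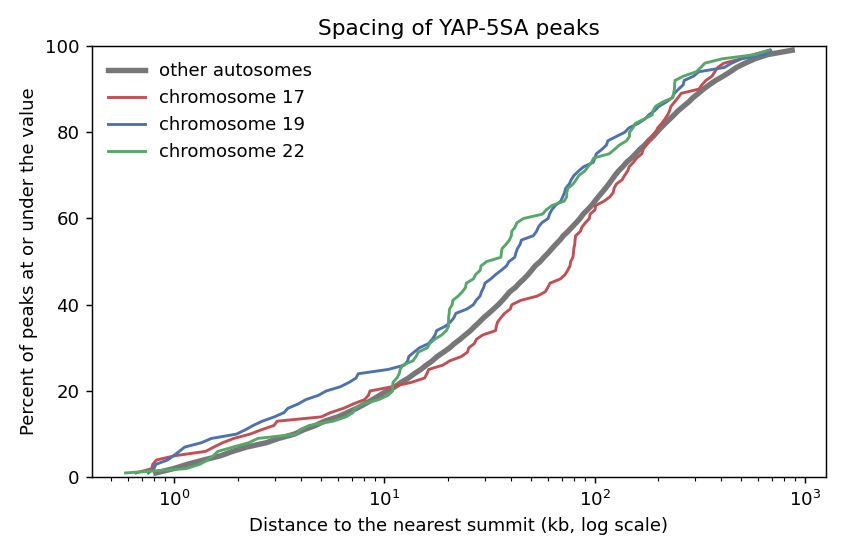
Percent of peaks (vertical axis) whose nearest summit lies at or under each distance in kb (horizontal axis, log scale) on chromosomes 17, 19 and 22 and the other autosomes, from the 1st to the 99th percentile. The curve of chromosome 17 passes its median at 76.9 kb, to the right of the others, and those of chromosomes 19 and 22 at 39.1 and 30.6 kb.

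Empty windows were rarer on chromosomes 17 and 22 than on chromosome 19, with intervals that overlap. Of the 82 windows of 1 Mb between the first and the last summit of chromosome 17, 7 held no peak, or 8.54% (4.20 to 16.6). Chromosome 22 had 3 empty windows of 33, or 9.09% (3.14 to 23.6), and chromosome 19 had 11 of 60, or 18.3% (10.6 to 29.9). The other autosomes together had 17.6% (16.2 to 19.1). Single autosomes among them ran from 6.35% on chromosome 20 to 43.3% on chromosome 16. The longest stretch free of peaks, taken out of the lengths above, was kept in these counts. It measured 4.36 Mb on chromosome 17, 6.18 Mb on chromosome 19, 2.64 Mb on chromosome 22, 3.92 Mb on chromosome 20 and 16.8 Mb on chromosome 16.

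Long peak-free stretches fell at few places. On chromosome 19 the longest ran from 24.05 to 30.2 Mb, and the next began at the single peak at its end and ran to 32.9 Mb. A further stretch from 21.4 to 23.5 Mb preceded them. On chromosome 17 the longest ran from 21.3 to 25.6 Mb, and no other exceeded 2 Mb. On chromosome 22 stretches of over 2 Mb ran from 33.6 to 35.99 Mb and from 47.7 to 50.3 Mb. Whether reads could be mapped there was not examined.

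The 2 sides of the longest stretch of chromosome 19 differed. Before it, 81 peaks gave 3.46 per Mb (2.74 to 4.296), and beyond it 143 peaks gave 4.96 per Mb (4.18 to 5.84), and the intervals overlap. The ratio of the densities was 1.43, and 3 of the 17 other autosomes with at least 40 peaks on each side had a higher one, in a range of 0.62 to 1.46. Median width was 625 bp (583 to 660) before and 696 bp (673 to 744) beyond, a difference of 71 bp. Among the same 17 autosomes this difference ran from -26.5 to 59.5 bp. Heights of 40 or more made up 6.17% (2.67 to 13.6) before and 13.3% (8.67 to 19.8) beyond, with overlapping intervals. That difference of 7.11 percentage points was exceeded on 1 of the 17, whose range was -3.94 to 9.42. On chromosome 17, which was divided in the same way, the densities were 3.82 and 3.86 per Mb and the median widths 650 and 629 bp. The 2 sides of chromosome 17 were therefore close in density, and their widths differed by less than on chromosome 19.

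In windows of 5 Mb, the highest mean heights on chromosome 19 were between 30 and 35 Mb and between 45 and 50 Mb. The first had 14 peaks with heights from 15 to 57, averaging 31.6 ± 15.2 (SD), 4 of them at 40 or more. The second had 35 peaks with heights from 12 to 68 and a mean of 32.4 ± 13.5, 9 of them at 40 or more. The window from 0 to 5 Mb, which holds the 2 tallest peaks, had a mean of 29.8 ± 20.3 and 4 peaks of 24 at 40 or more, and that from 40 to 45 Mb had 4 of 26. Neither the 18 peaks from 50 to 55 Mb nor the 14 from 55 to 60 Mb included one of height 40. On chromosome 22 the window from 35 to 40 Mb had the most tall peaks, 5 of 24, with a mean of 31.4 ± 11.7. On chromosome 17 no window of 10 or more peaks had a mean above 27.8. The heights of these windows overlap, and the windows were picked after their values had been seen. On the other autosomes, windows of 10 or more peaks had mean heights from 18.5 to 37.0.

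The most crowded megabases of the 3 chromosomes were within the range of the other autosomes. There, the most crowded one held from 9 peaks on chromosome 16 to 23 on chromosome 8. On chromosome 19 the megabase from 38 to 39 Mb held 14 peaks of median height 25.5 and the next one 12 peaks of median height 29.5, none of them at 40 or more. The megabase from 47 to 48 Mb held 12 peaks of median height 33.5 and of narrow median width, 559 bp. On chromosome 17 the most crowded megabase, from 39 to 40 Mb, held 12 peaks of median height 22.5, and on chromosome 22 that from 36 to 37 Mb held 11 of median height 29. The crowded windows thus held peaks of various heights.

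Groups were formed from peaks with no more than 10 kb between neighbouring intervals. There were 27 groups of 2 or more on chromosome 17 holding 20.8% of its peaks, 24 on chromosome 19 with 25% and 12 on chromosome 22 with 19.8%. Over the other autosomes the share of peaks in groups was 20.5%. Groups of 3 or more numbered 6 on chromosome 17, 4 on chromosome 19 and 0 on chromosome 22, which had only 121 peaks. Together the 3 had 10 such groups among 638 peaks, and the other autosomes had 140 among 8590, a similar rate.

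On the other autosomes the largest group held 7 peaks, on chromosome 1. Among the 3 chromosomes the largest lay on chromosome 19 from 39127338 to 39157242 and also held 7 peaks, in 29.9 kb. Their heights, in order along the chromosome, were 24, 39, 19, 22, 15, 35 and 37, and their widths ran from 590 to 764 bp. The 3 low peaks in the middle of the group were followed by 2 of similar, greater height, and the tallest of the 7 exceeded the next by 2 units. On chromosome 17 the largest group, from 38666281 to 38678328, held 4 peaks of heights 32, 17, 17 and 30, so that the outer peaks were the taller ones.

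Some groups on each of the 3 chromosomes were led by a single tall peak. On chromosome 19 the group from 2532607 to 2541409 had heights of 20, 20 and 73. The pairs of that chromosome from 35653713 to 35659688, with heights of 64 and 21, and from 45879395 to 45880516, with heights of 61 and 26, had the same form. So had the pair of chromosome 22 from 37306428 to 37308943 (heights 16 and 54) and that of chromosome 17 from 73680934 to 73690284 (heights 49 and 22). On chromosome 17 the group from 1391120 to 1402001 had 2 peaks of nearly equal height, 41 and 39, and 1 of 14. Over the 3 chromosomes the mean height was 26.6 ± 10.9 (SD) for 141 peaks in groups and 26.2 ± 10.4 for 497 outside them. On the other autosomes it was 26.7 ± 10.3 and 25.5 ± 9.34. Whether these contrasts differ was not tested.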

How the data were processed

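One peak list, from the ChIP library of 2 samples, was used. BWA 0.6.1, MACS and hg19 are named in the submitters' processing notes. How MACS was set, its version and whether it used the input were not stated. The list has 2 tracks, summits and intervals, per the file headers. The score deposited by the authors in the summit track, called height, has no stated unit. Other columns hold positions. The tracks were joined by line order, and all 9393 summits lay inside their interval. In positions that count from 1, summits of the members lay 1 bp past a multiple of 32 bp in 82.3% of cases.

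Read depth is unknown and nothing was corrected for DNA copy number. Shares carry Wilson intervals, densities exact Poisson intervals, and medians intervals from order statistics. Genes were counted by chromosome name in RefSeq's GRCh38.p14 table. Planned results on start sites, gene bodies, motifs, GC content and list genes near peaks need hg19 sequence or annotation, not used here, so the rule for naming genes at peaks named none. Genes named in the report were picked from the lists by role. The members, lists and comparisons were chosen with earlier results of these data known. The functions for chromosome length and for the interval of a median were tested on simulated data, and the others were not. Python 3.11.15, numpy 2.4.6, pandas 2.3.3, scipy 1.17.1 and matplotlib 3.10.9 were used.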

Additional observations from a re-analysis of the deposited data

How the results depend on the processing

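No paired analysis was possible because only 1 ChIP library was made and the labels give no replicate numbers. Alternatives that need hg19 sequence or annotation, chromosome lengths included, were not run. Of 43 alternatives, 2 turned a direction: the share of members at height 40 or more fell from 9.87% to 8.51% without chromosome 22, under the 8.60% of the other autosomes, and the share with a neighbour within 50 kb fell from 50.3% to 47.3% without chromosome 19, under 47.9%. A further 15 moved a value outside its interval with its direction kept. Those that changed a cutoff, the peaks or the genes counted changed the quantity itself. For them only the comparison with the other autosomes at the same setting can be read. Without chromosome 17 the tall share was 12.5%, the neighbour share 57.4% and the excess in median width 64 bp. At heights of 30 or 50 or more the tall share was 30.3% or 3.45%, against 26.4% or 2.77% elsewhere. With neighbours counted within 10 or 100 kb the share was 21.8% or 68.3%, against 19.6% or 64.0%. The share of wide peaks was 20.4% at 800 bp and 8.78% at 1000 bp, against 13.3% and 5.03%, and 9.18% without chromosome 19. Peaks per 100 genes, 20.8 on the 3 chromosomes against 53.5, became 9.46 against 17.2 for all genes, 22.7 against 54.3 without zinc finger genes, 9.80 against 24.3 for peaks higher than the median, 18.1 without chromosome 17 and 25.6 without chromosome 19. The alternatives for wide peaks and genes, those for width other than its mean, those that left a chromosome out of the spacing, the density ratio without chromosomes 1, 5, 8, 10 and 20 and heights of peaks with no neighbour within 10 kb were added once the data had been seen. The ratio of densities ran from 1.10 to 1.23 over its alternatives. The highest was that without chromosomes 1, 5, 8, 10 and 20, which had 4.50, 4.33, 3.54, 3.29 and 6.07 peaks per Mb. Without a second library or a known depth, no value could be checked further.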
